A study of Mus musculus with 24 samples.

Results

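The 34 genes described here encode the enzymes that make serine, move its carbon through the folate cycle and build or salvage purine and pyrimidine nucleotides. They were chosen by name for their function, over 8 roles, and all 34 were found among the 22009 named entries of the table. The source was CD4+ T cells from the spleen of adult Wildtype C57BL/6 mice, purified by negative selection on magnetic beads and sequenced as 24 libraries. The labels do not call the cells naive, while the study's methods do for the cells put in culture. The time course had 20 libraries: 2 of Purified Unstimulated CD4 T cells, here called resting, and 1 for each of 3 culture conditions at each of 6 times. Every culture was stimulated through anti-CD3 and anti-CD28. Th0 cultures had nothing more. To these signals the Th1 cultures added IL-12 with an antibody to IL-4, and the Th2 cultures added IL-4 with antibodies to IL-12 and IFN-γ. The other 4 libraries were of cells stimulated for 16 h and then kept with actinomycin, which stops transcription, for 0, 1, 2 or 4 h, with no condition given in the labels. The study describes a pool of several mice, and nothing says that libraries came from separate animals. The p-values therefore measure only the spread between these libraries, which may be technical. In comparisons with rest and between times, the 3 conditions of a time served as its libraries. The spread and SE there also hold differences between conditions. The study describes cells taken from the cultures over time, so the times of a condition may not be independent.

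A resting T cell makes little DNA and few ribosomes and lives largely on salvaged bases. Once its receptor and CD28 are engaged it grows into a blast and then enters S phase, and both steps draw on nucleotides made anew. Serine gives glycine and a carbon unit to tetrahydrofolate, and these units close the purine ring and methylate dUMP to dTMP. The purine ring is built on phosphoribosyl pyrophosphate (PRPP), the pyrimidine ring is built first and joined to PRPP later, and ribonucleotide reductase turns the finished ribonucleotides into the precursors of DNA.

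Values are RPKM, read counts scaled to transcript length and library depth, a scale on which levels can be compared between genes. The time-course libraries held 17512385 to 33017133 mapped reads, and those with actinomycin 18052931 to 25735543, as recovered from the values. A gene of 1 kb at 1 RPKM therefore rests on 17.5 to 33.0 reads. All 34 genes passed the filter on low values, a mean of 1 RPKM, and their lowest value in any library was 5.83 RPKM. The 10 markers of CD4 T cells summed to 2402 and 2427 RPKM at rest and to between 1468 and 1893 RPKM in the cultures. The resting libraries also held transcripts of other spleen cells: 10 markers of red cells and their precursors summed to 39050 and 42600 RPKM, and 12 markers of monocytes and macrophages to 621.5 and 641 RPKM. At 24 h these lists were at 143 to 213 and at 8.87 to 14.9 RPKM, and neither list had a marker at 0 in every library of the time course.

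Most of the 34 genes rose within a day. At 24 h, 25 genes were called higher than at rest and 2 lower, where a call needs a limma adjusted p (Benjamini-Hochberg over all 10897 genes tested) under 0.05 together with a 2-fold or larger change on the log2(RPKM + 0.5) scale. Of all genes tested, 12.7% were called higher and 17.4% lower at that time. The median difference from rest was 1.48 over the 34 genes and -0.04 over all genes. All 3 genes of serine synthesis, all 5 of the folate cycle, 7 of 8 of the purine ring, 3 of 4 of the AMP and GMP branches, 3 of 5 of the pyrimidine ring and CTP, both purine base salvage enzymes, 1 of 4 genes of thymidylate supply and 1 of 3 of the reductase group were called higher. The map of changes by library shows these rises in red, and Rrm1, Rrm2, Tk1 and Tyms in blue from 8 to 16 h.

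**Figure D1:**
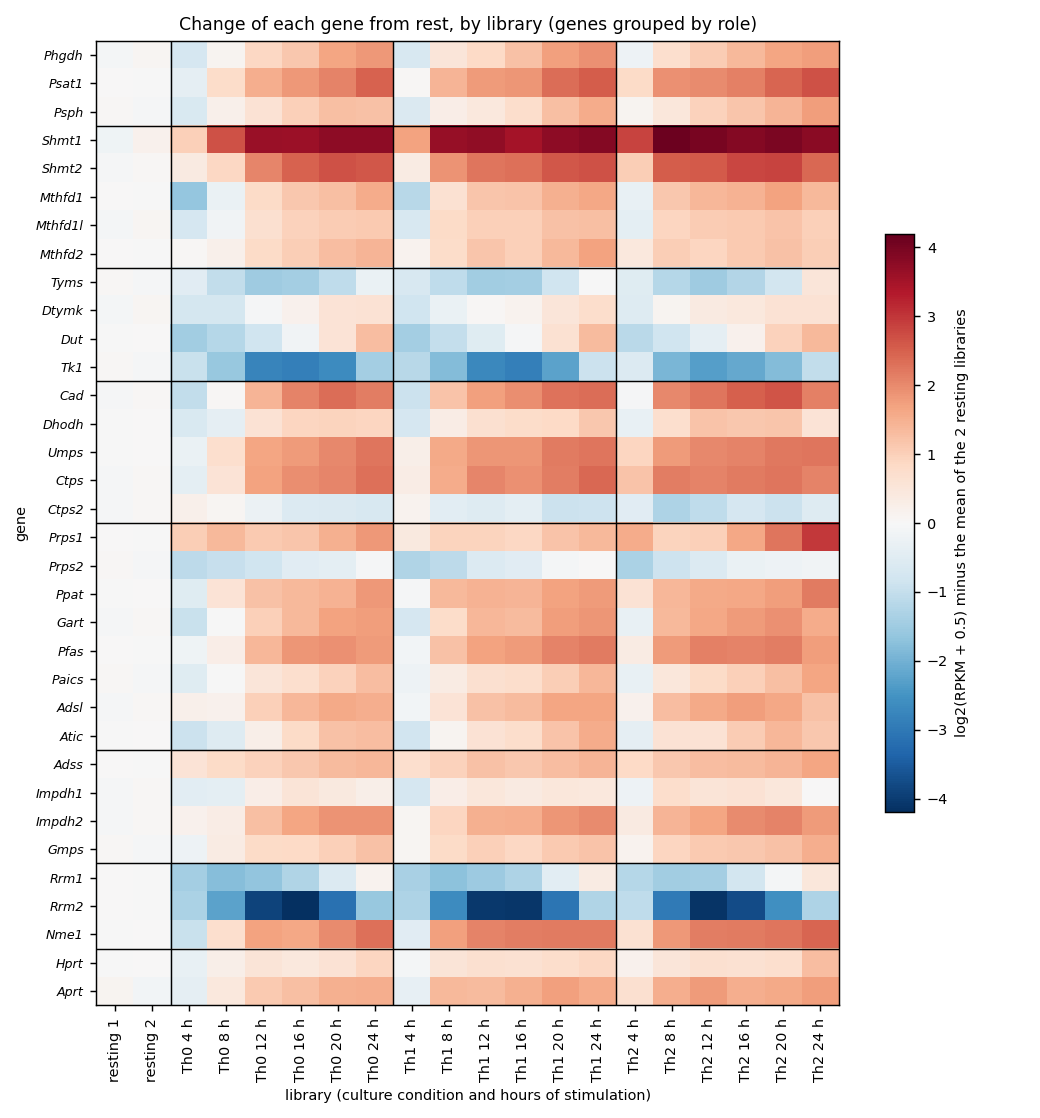
Change of each of the 34 genes (rows, grouped by role) from the mean of the 2 resting libraries in each library of the time course (columns), on the log2(RPKM + 0.5) scale. Shmt1 had the largest rise at 24 h, 3.80 over the 3 cultures, and Rrm2 the largest fall, -4.10 at 16 h.

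The rise was not immediate. At 4 h, 1 gene was called higher (2.61% of all genes tested) and 5 lower (7.97%). The mean was below rest in 21 of the 34 genes and above it in 13, against 45.9% of all genes above it. The gene called higher was Shmt1. The genes called lower were Mthfd1, Dut, Prps2, Rrm1 and Rrm2, with differences from rest between -1.04 and -1.34. By 8 h, 11 genes were called higher (6.42% of all genes) and 5 lower (12.5%). At 12 h the counts were 16 higher (10.7%) and 4 lower (16.4%), at 16 h 19 higher (11.2%) and 4 lower (14.5%), and at 20 h 23 higher (12.9%) and 2 lower (16.1%). A gene once called higher was still called higher at each later time. Between 4 and 8 h, 13 of the 34 genes rose past the threshold (2.95% of all genes) and 1, Rrm2, fell (1.84%). Without the Th1 cultures, or with only the 6 libraries of 4 and 8 h in the fit, none of the 34 was called at that step, and without the Th1 cultures 10 rather than 16 genes were called at 8 h against rest. These fits have fewer libraries. Leaving out 1 condition gave from 0 to 17 calls at this step. The cause was not tested. With the condition series as a block in the 18 cultures, the same 14 genes were called. From 8 to 12 h only Rrm2 was called (1.25% of all genes), from 12 to 16 h none by limma (0.248% of all genes, and 4 of the 34 at an unadjusted p under 0.05, against 7.16% of all genes), from 16 to 20 h Rrm2 (0.367%) and from 20 to 24 h Rrm2 and Tk1 (0.431%). These calls on Rrm2 and Tk1 were lost as well without the Th1 cultures and with only the libraries compared, those from 16 to 20 h and of Tk1 also without the Th0 cultures, and they were kept with the block.

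The 3 enzymes that make serine from 3-phosphoglycerate rose at different speeds, as shown next with the values of each culture given in order of time, at 4, 8, 12, 16, 20 and 24 h. Phgdh, the first and committed step, is listed first. Phgdh stood at 44.3 and 49.1 RPKM at rest, at 28.6, 50.7, 84.7, 103, 147 and 167 RPKM in Th0, at 28.8, 66.05, 83.6, 109, 157 and 176 RPKM in Th1 and at 40.6, 76.4, 97.5, 119.7, 149.9 and 159 RPKM in Th2. It was below rest in every culture at 4 h and then higher at each later time up to 24 h in all 3 series, with a difference from rest of 1.83 ± 0.16 (SE, adjusted p = 8.3e-08) at 24 h. Psat1 encodes the aminotransferase of the second step. Psat1 was at 18.7 and 18.5 RPKM at rest, at 14.3, 31.9, 54.3, 67.02, 79.96 and 105 RPKM in Th0, at 19.3, 51.2, 64.96, 68.3, 96.9 and 111 RPKM in Th1 and at 32.8, 72.4, 74.6, 82.6, 104 and 121 RPKM in Th2. Its Th2 value was above both others at every time, and its difference from rest at 24 h was 2.56 ± 0.30 (SE, adjusted p = 1.9e-06). Psph, the closing phosphatase, went from 15.5 and 14.1 RPKM at rest to 35.2, 44.6 and 50.7 RPKM in Th0, Th1 and Th2 at 24 h, a difference of 1.51 ± 0.21 (SE, adjusted p = 1.4e-05). Phgdh shared 47.8% of its 50-base transcript windows with annotated pseudogenes, so reads from those copies could have been split or lost in its value.

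In the folate cycle all 5 genes were called higher at 24 h, and they differed in when they rose and by how much. Shmt1 and Shmt2, on chr11:60788104-60811718 and chr10:127517123-127522444, encode the cytosolic and mitochondrial serine hydroxymethyltransferases, which pass carbon from serine to folate. Shmt1 stood at 6.299 and 8.18 RPKM at rest, at 14.8, 48.9, 94.1, 92.8, 103 and 103 RPKM in Th0, at 24.4, 96.5, 100.5, 86.8, 103 and 111 RPKM in Th1 and at 54.5, 133, 121, 111, 119.5 and 106 RPKM in Th2. Every culture was above both resting libraries from 4 h on, and at 4 and 8 h the order Th0, Th1, Th2 was kept. Shmt1 went from the lowest of the 34 genes at rest to rank 13 at 24 h, with differences from rest of 1.84 ± 0.40 (SE, adjusted p = 0.0019) at 4 h and 3.80 ± 0.40 (SE, adjusted p = 6.4e-07) at 24 h. Shmt2 lay at 24.5 and 25.9 RPKM at rest, at 32.7, 46.8, 106, 144, 163 and 155 RPKM in Th0, at 32.5, 94.4, 123, 126, 157 and 164 RPKM in Th1 and at 51.9, 148, 154, 180.2, 184 and 137 RPKM in Th2. At rest Shmt2 was the higher of the pair, with a ratio of Shmt1 to Shmt2 of 0.257 and 0.315, and this ratio reached 0.898 to 1.04 at 8 h and settled at 0.662 to 0.777 at 24 h. The difference of Shmt2 from rest at 24 h was 2.57 ± 0.33 (SE, adjusted p = 5.2e-06).

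Mthfd1 is the cytosolic enzyme that joins formate to folate and interconverts the carbon units, and Mthfd1l releases formate from mitochondria. Mthfd1 stood at 24.4 and 23.5 RPKM at rest, at 7.42, 19.5, 41.9, 53.6, 58.3 and 71.6 RPKM in Th0, at 10.3, 37.7, 54.6, 55.6, 68.5 and 75.3 RPKM in Th1 and at 19.1, 53.6, 63.1, 67.1, 77.5 and 62.4 RPKM in Th2. All 3 cultures were below rest at 4 h and above it from 12 h on. Its fall at 4 h was -1.04 ± 0.35 (SE, adjusted p = 0.03), close to the 2-fold limit, and was no longer called under 7 of 15 alternatives. Mthfd1l was at 18.9 and 21.6 RPKM at rest, at 12.2, 18.2, 32.2, 40.04, 42.7 and 43.4 RPKM in Th0, at 12.6, 35.5, 41.3, 40.6, 47.7 and 49.4 RPKM in Th1 and at 15.01, 38.6, 42.6, 44.2, 47.3 and 40.5 RPKM in Th2. Both genes were below rest in all 3 cultures at 4 h, and at 24 h they differed from rest by 1.52 ± 0.35 and 1.11 ± 0.23 (SE). Mthfd2, the mitochondrial dehydrogenase and cyclohydrolase, was not below rest at any time. Mthfd2 measured at 30.3 and 29.5 RPKM at rest, at 30.7, 34.8, 52.6, 61.1, 74.5 and 80.7 RPKM in Th0, at 33.4, 51.2, 67.4, 60.6, 77.2 and 97.5 RPKM in Th1 and at 41.1, 61.4, 56.4, 65.02, 70.8 and 61.2 RPKM in Th2. Its highest value was in Th1 at 24 h, and its difference from rest then was 1.38 ± 0.21 (SE, adjusted p = 2.5e-05).

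Of the genes that lead to UMP, Cad and Umps were called higher at 24 h and Dhodh was not. Cad carries its first steps on a single protein. Cad stood at 20.9 and 22.4 RPKM at rest, at 10.4, 22.5, 59.2, 93.6, 113 and 97.3 RPKM in Th0, at 11.3, 50.8, 73.3, 86.01, 106 and 113 RPKM in Th1 and at 20.7, 88.3, 106, 124, 136 and 94.8 RPKM in Th2. All 3 cultures were below both resting libraries at 4 h, Th2 by the least, and from 12 h on every culture was above rest, by 2.20 ± 0.40 (SE, adjusted p = 1.5e-04) at 24 h. Umps makes UMP. Umps was at 12.7 and 13.2 RPKM at rest, at 10.7, 21.4, 41.9, 45.7, 53.5 and 63.02 RPKM in Th0, at 15.3, 40.3, 48.3, 47.97, 60.8 and 63.6 RPKM in Th1 and at 24.5, 46.04, 54.5, 56.8, 62.5 and 63.9 RPKM in Th2. Its 3 cultures at 24 h lay within 1 RPKM of each other, at a difference from rest of 2.25 ± 0.28 (SE, adjusted p = 4.7e-06). Dhodh, the mitochondrial dehydrogenase between them, went from 11.2 and 11.7 RPKM at rest to 21.95, 25.9 and 17.3 RPKM at 24 h, a difference of 0.88 ± 0.26 (SE, adjusted p = 0.0066) that missed the 2-fold limit.

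Ctps and Ctps2 both encode CTP synthases, and their courses differed. Ctps stood at 13.2 and 14.4 RPKM at rest, at 10.3, 20.9, 45.5, 55.1, 58.4 and 71.01 RPKM in Th0, at 17.2, 41.03, 59.2, 53.5, 62.3 and 75.4 RPKM in Th1 and at 32.4, 62.7, 59.9, 63.7, 67.7 and 59.6 RPKM in Th2. Ctps was below rest in Th0 and above it in Th1 and Th2 at 4 h, and above it in all cultures from 8 h on, by 2.27 ± 0.38 (SE, adjusted p = 6.8e-05) at 24 h. Ctps2 lay at 48.5 and 52.4 RPKM at rest, at 58.3, 53.02, 42.3, 33.4, 32.8 and 31.7 RPKM in Th0, at 56.3, 37.1, 34.4, 37.5, 26.4 and 27.6 RPKM in Th1 and at 36.1, 20.1, 23.9, 30.8, 26.7 and 34.2 RPKM in Th2. Its lowest Th2 value came at 8 h, and in Th0 it was above rest at 4 and 8 h and below it from 12 h on. At 24 h its difference from rest was -0.69 ± 0.30 (SE, adjusted p = 0.056), which passed neither limit. The ratio of Ctps to Ctps2 went from 0.272 and 0.274 at rest to 1.74 to 2.73 at 24 h. Only 1.00% of the windows of Ctps, and none of Ctps2, were shared with other genes, and neither shared any with the other.

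Prps1 and Prps2 encode PRPP synthetases, which supply the sugar phosphate for both rings, and they too differed. Prps1 stood at 32.4 and 32.1 RPKM at rest, at 65.8, 84.2, 69.5, 73.4, 91.8 and 114 RPKM in Th0, at 43.01, 62.1, 62.6, 59.8, 75.4 and 82.8 RPKM in Th1 and at 95.3, 61.5, 64.7, 99.4, 154 and 255 RPKM in Th2. Prps1 was above rest in all cultures at 4 h, lay between 59.8 and 99.4 RPKM in all cultures from 8 to 16 h, and at 24 h reached 255 RPKM in Th2, 2.24-fold above Th0 and 3.08-fold above Th1 at that time. Its difference from rest at 24 h was 2.04 ± 0.39 (SE, adjusted p = 2.8e-04), and 1.58 ± 0.34 (SE) without the Th2 24 h library. Prps2 was at 36.2 and 33.7 RPKM at rest, at 15.95, 17.4, 19.5, 24.8, 25.98 and 33.5 RPKM in Th0, at 14.2, 16.2, 23.3, 24.8, 33.2 and 35.3 RPKM in Th1 and at 13.6, 18.8, 23.3, 28.96, 30.4 and 31.4 RPKM in Th2. It fell in every culture at 4 h, by -1.23 ± 0.13 (SE, adjusted p = 1.9e-06), and was at 31.4 to 35.3 RPKM at 24 h, with a difference of -0.07 ± 0.13 (SE, adjusted p = 0.66). Prps1 shared 9.93% of its windows with Prps1l3, an annotated copy.

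**Figure D2:**
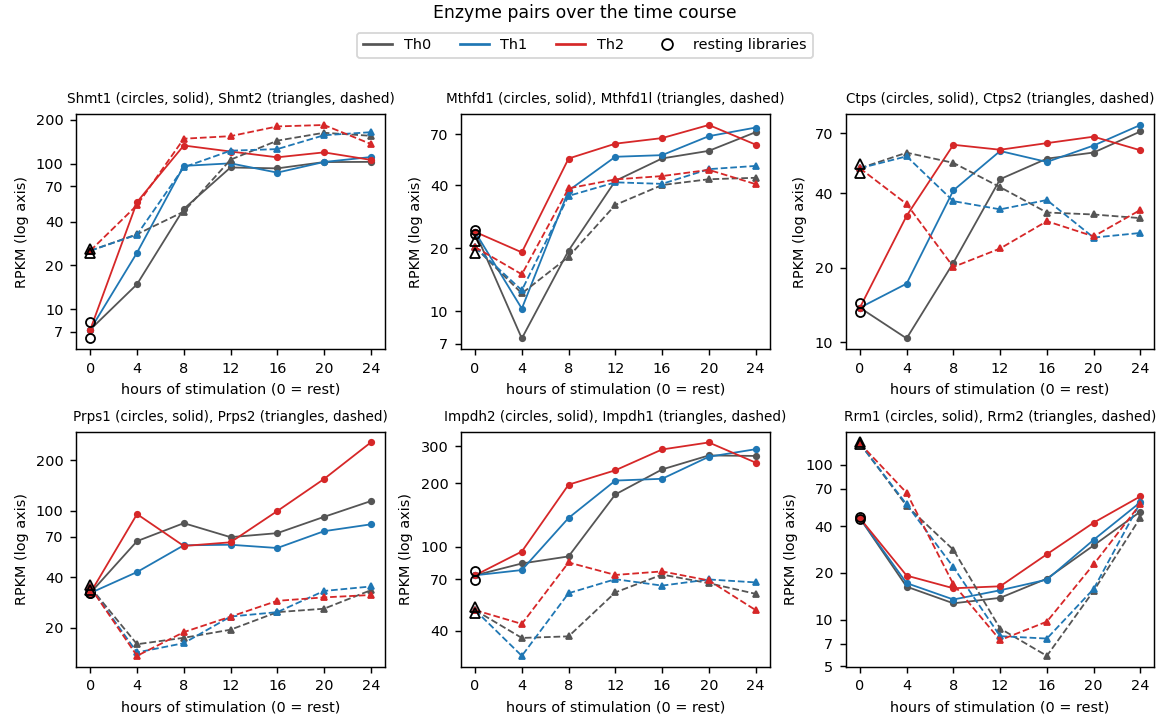
Levels of 6 pairs of related enzymes (RPKM, log axis) against hours of stimulation, with 1 library per point and the 2 resting libraries as open symbols at 0 h. Ctps and Impdh2 rose while Ctps2 was lower at 24 h than at rest and Impdh1 stayed within 30.3 to 84.3 RPKM, and Rrm2 lay above Rrm1 at rest and below it at 24 h in all 3 series.

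Promoter windows of RefSeq on GRCm38.p6 around the start were at hand for 32 of the 34 genes, all but Dhodh and Pfas, and the first window of each gene was searched on both strands. NF-Y boxes (CCAAT) were in 15 of 32 windows (46.9%), against 39.8% of the 8303 tested genes with a window and 37.9% of all windows. E-boxes (CACGTG) were in 6 (18.8%), against 10.6% and 7.24%: Tyms, Dtymk, Paics, Atic, Impdh2 and Nme1. The E2F letters TTTGGCGC, TTTCGCGC, TTTCCCGC or TTTGCCGC were in 2 (6.25%), Prps2 and Ppat, against 4.42% and 2.32%, the NRF1 palindrome in 2 (6.25%), Shmt2 and Ctps, against 2.30% and 0.977%, and the ATF4 letters TGATGNAA in 1 (3.12%), Prps1, against 2.16% and 4.06%. A match is a description of letters, and no test was made of it. None of the 4 genes called lower at 16 h had the E2F letters in this window. With 4.42% of tested genes matching, 4 genes are too few to read anything from this. The last 120 bases before the start are shown for Shmt1, the gene with the largest rise, for the pairs Ctps and Ctps2 and Prps1 and Prps2, whose courses differed, and for Rrm1, which fell first, with motif letters in capitals. None of these stretches holds an exon of the GENCODE annotation. On GRCm38.p6 they lie at chr11:60811266-60811385 (minus strand), chr4:120570277-120570396 (minus), chrX:162902051-162902170 (plus), chrX:140456483-140456602 (plus), chrX:167382750-167382869 (minus) and chr7:102441575-102441694 (plus).
Shmt1: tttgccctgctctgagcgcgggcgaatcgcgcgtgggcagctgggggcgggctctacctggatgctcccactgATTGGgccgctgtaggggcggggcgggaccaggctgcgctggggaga
Ctps: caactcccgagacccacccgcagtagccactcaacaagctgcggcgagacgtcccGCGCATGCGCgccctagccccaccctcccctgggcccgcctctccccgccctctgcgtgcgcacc
Ctps2: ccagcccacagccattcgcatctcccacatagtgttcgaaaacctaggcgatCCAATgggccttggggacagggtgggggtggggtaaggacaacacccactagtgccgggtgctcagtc
Prps1: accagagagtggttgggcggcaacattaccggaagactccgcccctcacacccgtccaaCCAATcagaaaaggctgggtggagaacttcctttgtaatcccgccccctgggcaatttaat
Prps2: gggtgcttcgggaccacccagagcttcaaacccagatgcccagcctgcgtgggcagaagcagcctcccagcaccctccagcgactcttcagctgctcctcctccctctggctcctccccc
Rrm1: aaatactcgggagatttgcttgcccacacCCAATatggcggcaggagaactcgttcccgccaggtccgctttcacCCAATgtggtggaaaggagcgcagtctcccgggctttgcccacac
The capitals are NF-Y boxes in Shmt1, Ctps2, Prps1 and Rrm1, which has 2, and the NRF1 palindrome in Ctps. The Prps2 stretch has none of the motifs, and the E2F letters of Prps2 lie after its start.

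Along the purine ring, 7 of 8 genes were called higher at 24 h. Ppat makes the first committed step and Paics a later pair of steps, and the genes lie head to head on opposite strands of chromosome 5, at chr5:76913249-76951578 and chr5:76951307-76967509, with exons that overlap by 272 bases. Ppat stood at 16.2 and 16.6 RPKM at rest, at 11.3, 24.4, 38.8, 43.4, 45.9 and 59.6 RPKM in Th0, at 15.9, 42.4, 46.00, 44.9, 54.04 and 57.8 RPKM in Th1 and at 25.01, 43.5, 50.6, 51.4, 56.1 and 76.1 RPKM in Th2. Its cultures were all above rest from 8 h on, and its difference at 24 h was 1.93 ± 0.26 (SE, adjusted p = 1.1e-05). Paics rose later and less, from 85.4 and 77.9 RPKM at rest to 201, 214 and 258 RPKM at 24 h, by 1.45 ± 0.16 (SE, adjusted p = 9.0e-07). Strand use in the counting is not given in the sources used here, so reads of the shared stretch could belong to either gene. Pfas, which adds an amide nitrogen, had the lowest resting level of the ring enzymes. Pfas was at 12.3 and 11.9 RPKM at rest, at 10.7, 14.8, 32.5, 45.5, 47.4 and 42.8 RPKM in Th0, at 11.1, 29.3, 40.1, 42.9, 52.7 and 56.3 RPKM in Th1 and at 15.5, 42.7, 53.9, 53.3, 54.97 and 41.9 RPKM in Th2. It reached 24 h at a difference of 1.90 ± 0.30 (SE, adjusted p = 5.1e-05). Gart carries several steps of the ring, a transfer of formyl carbon among them. Gart stood at 31.7 and 34.6 RPKM at rest, at 16.9, 32.6, 67.3, 86.7, 107 and 113 RPKM in Th0, at 20.3, 56.9, 87.5, 84.8, 114 and 120.4 RPKM in Th1 and at 26.3, 86.9, 103, 115, 126 and 99.02 RPKM in Th2. It was below rest at 4 h in all 3 cultures, and was higher at 24 h by 1.72 ± 0.29 (SE, adjusted p = 7.4e-05). Adsl and Atic, which cleave an intermediate and close the ring to IMP, were higher at 24 h by 1.47 ± 0.24 and 1.33 ± 0.24 (SE).

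At the branch from IMP, Adss on the way to AMP was already above rest in every culture at 4 h. It went from 49.6 and 47.5 RPKM at rest to 72.6, 79.6 and 86.6 RPKM at 4 h and to 128, 133 and 155 RPKM at 24 h, a difference of 1.497 ± 0.13 (SE, adjusted p = 5.4e-08). Impdh1 and Impdh2 encode IMP dehydrogenases, the entry to GMP, and Gmps the step that follows. Impdh2 stood at 69.9 and 76.5 RPKM at rest, at 83.3, 90.04, 177, 233, 272 and 270.1 RPKM in Th0, at 77.6, 137, 206, 210.4, 268 and 291 RPKM in Th1 and at 94.99, 197, 231, 289.9, 313 and 251 RPKM in Th2. Impdh2 was above both resting libraries in every culture and had the highest mean of the 34 genes at 24 h, with a difference of 1.88 ± 0.23 (SE, adjusted p = 3.0e-06). Impdh1 was at 48.2 and 51.8 RPKM at rest, at 36.9, 37.6, 60.7, 73.8, 67.2 and 59.8 RPKM in Th0, at 30.3, 60.2, 70.2, 65.4, 69.98 and 67.8 RPKM in Th1 and at 43.03, 84.3, 73.5, 76.4, 69.2 and 50.1 RPKM in Th2. It showed no called change, and its difference at 24 h was 0.23 ± 0.23 (SE, adjusted p = 0.39). The ratio of Impdh2 to Impdh1 went from 1.45 and 1.48 at rest to 4.29 to 5.02 at 24 h. Impdh2 shared 39.3% of its windows with an annotated pseudogene. Gmps rose from 11.3 and 10.7 RPKM to 26.6, 26.1 and 32.5 RPKM at 24 h, by 1.32 ± 0.17 (SE, adjusted p = 5.0e-06).

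Both purine base salvage enzymes were called higher at 24 h. Aprt, which salvages adenine, went from 42.5 and 35.7 RPKM at rest to 112, 116 and 134 RPKM at 24 h, a difference of 1.61 ± 0.30 (SE, adjusted p = 2.2e-04). Hprt salvages hypoxanthine and guanine and is widely used as a reference transcript, also in this study. Hprt stood at 71.9 and 72.99 RPKM at rest, at 58.4, 86.03, 107, 98.4, 111 and 135 RPKM in Th0, at 68.5, 107, 117, 112, 122 and 134 RPKM in Th1 and at 81.7, 103, 116, 112, 117 and 179.6 RPKM in Th2. Its highest value was in Th2 at 24 h, and its difference from rest then was 1.03 ± 0.15 (SE, adjusted p = 1.6e-05). The call on Hprt was lost under 4 of 16 alternatives, with a difference of 0.89 without the Th2 24 h library and 0.80 after quantile normalization. Nme1, a nucleoside diphosphate kinase, had the third highest mean of the 34 genes at 24 h. Nme1 stood at 43.4 and 44.2 RPKM at rest, at 22.7, 71.1, 142, 136, 175 and 218 RPKM in Th0, at 31.04, 145, 188, 198, 199 and 201 RPKM in Th1 and at 68.2, 157, 197, 199.6, 211 and 242 RPKM in Th2. Th0 and Th1 were below rest at 4 h and Th2 was above it, and the difference at 24 h was 2.31 ± 0.36 (SE, adjusted p = 3.7e-05). Nme1 shared 11.1% of its windows with Gm20390, an annotated gene that overlaps its exons, so its reads could have been split.

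Both subunits of the reductase fell first. Rrm2, the small subunit of ribonucleotide reductase, was the highest of the 34 genes at rest. Rrm2 stood at 139 and 135 RPKM at rest, at 54.2, 28.2, 8.76, 5.83, 15.3 and 45.5 RPKM in Th0, at 55.4, 21.8, 7.82, 7.54, 15.8 and 57.02 RPKM in Th1 and at 65.8, 16.9, 7.37, 9.701, 22.7 and 55.7 RPKM in Th2. It fell in all 3 series to a low at 12 or 16 h and then climbed again without reaching rest, with differences of -1.23 ± 0.22 (SE, adjusted p = 3.9e-04) at 4 h, -4.10 ± 0.22 (SE, adjusted p = 1.2e-10) at 16 h and -1.38 ± 0.22 (SE, adjusted p = 4.1e-05) at 24 h. Rrm1, the large subunit, was lower at rest and fell less. Rrm1 was at 45.6 and 44.7 RPKM at rest, at 16.3, 12.7, 13.8, 18.4, 30.1 and 49.8 RPKM in Th0, at 17.2, 13.48, 15.5, 18.1, 32.7 and 57.2 RPKM in Th1 and at 19.2, 15.9, 16.4, 26.4, 42.2 and 62.5 RPKM in Th2. Its difference from rest was -1.66 ± 0.17 (SE, adjusted p = 1.0e-06) at 8 h and 0.31 ± 0.17 (SE, adjusted p = 0.11) at 24 h, when all 3 cultures were above both resting libraries. The ratio of Rrm1 to Rrm2 went from 0.328 and 0.330 at rest to 2.40 to 3.15 at 16 h and back to 1.00 to 1.12 at 24 h.

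Tyms methylates dUMP to dTMP, Tk1 salvages thymidine in S phase, Dut destroys dUTP and Dtymk phosphorylates dTMP. Tyms stood at 30.9 and 29.4 RPKM at rest, at 21.6, 14.5, 10.4, 11.02, 14.3 and 24.8 RPKM in Th0, at 18.9, 14.04, 10.6, 10.8, 16.6 and 30.00 RPKM in Th1 and at 21.2, 12.9, 10.5, 12.6, 17.3 and 42.98 RPKM in Th2. All cultures were below rest from 4 to 20 h, by -1.48 ± 0.16 (SE, adjusted p = 1.4e-06) at 12 h, and at 24 h Th2 was above rest, Th1 between the resting libraries and Th0 below them. Tk1 went from 51.4 and 47.4 RPKM to between 6.36 and 10.9 RPKM at 16 h and 17.9, 26.03 and 23.9 RPKM at 24 h in Th0, Th1 and Th2, a difference of -1.13 ± 0.26 (SE, adjusted p = 0.0011). Without the Th0 cultures its 24 h difference was -0.97 and no longer called. Dut fell from 36.2 and 36.6 RPKM to 12.8, 13.3 and 16.3 RPKM at 4 h and rose to 89.8, 91.4 and 93.4 RPKM at 24 h, so that it was called lower at 4 h and higher at 24 h, by -1.34 ± 0.16 and 1.32 ± 0.16 (SE). Dtymk was never called and lay at 73.7 to 80.4 RPKM at 24 h against 45.9 and 51.2 RPKM at rest.

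Other lists moved over the same hours. The 18 genes of the S phase list summed to 918 and 921 RPKM at rest, 625 to 739 RPKM at 4 h and 1703 to 2203 RPKM at 24 h, and 11 of them were called higher at 24 h. The 10 genes of the mitosis list summed to 348 and 335 RPKM at rest. They were at 34.02 to 41.5 RPKM at 12 h, with 10 called lower, and at 149 to 227 RPKM at 24 h. All 10 red cell genes were called lower at 12 h and summed to 1468 to 2038 RPKM at 16 h. All 9 tested monocyte and macrophage genes were called lower at 12 h too. The part of these cells in the early fall of Rrm2, Rrm1, Tk1, Tyms and Dut was not tested, and in bulk RNA fewer cells of a type and less RNA per cell cannot be told apart. The resting libraries carry another number in their titles than the cultures, whose meaning is not given in the sources used here, so what it stands for and the state of the cells cannot be told apart either. The plot of these enzymes beside the marker lists gives both courses.

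**Figure D3:**
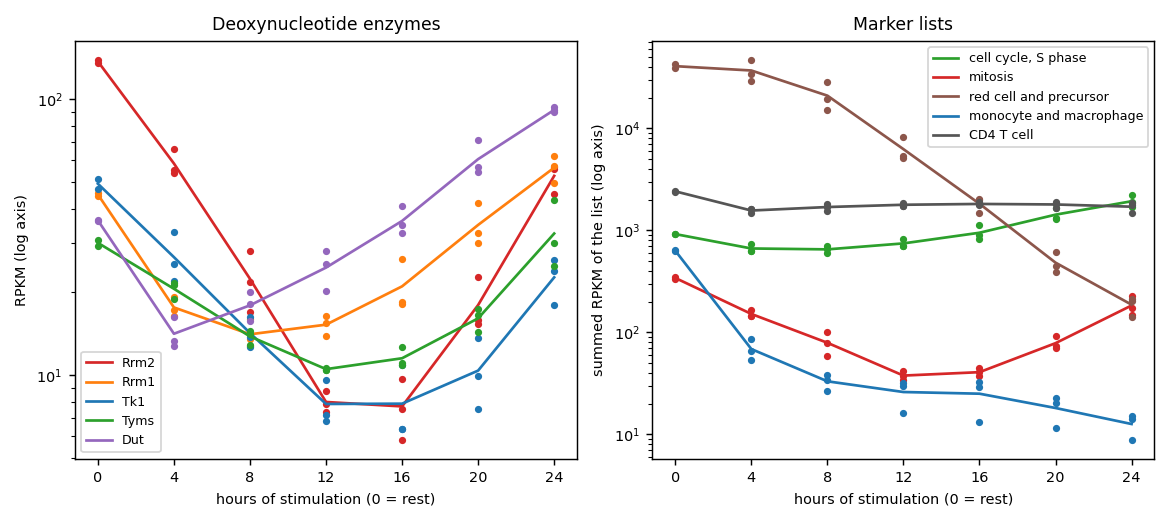
Left, RPKM (log axis) of 5 enzymes of DNA precursor supply, and right, the summed RPKM (log axis) of 5 marker lists, against hours of stimulation, with 1 point per library and a line through the means. Rrm2 fell from 139 and 135 RPKM at rest to between 5.83 and 9.70 RPKM at 16 h. The red cell list fell from 39050 and 42600 RPKM, in the same library order, to between 1468 and 2038 RPKM.

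The genes rose at different times in the 3 series. Over the 25 genes called higher at any time, the midpoint of the rise, the interpolated hour at which the log2 level first passed midway between rest and its highest point, had a median of 8.26 h over the 3 series together, 10.6 h in Th0, 7.55 h in Th1 and 6.52 h in Th2. It came earlier in Th2 than in Th0 for 23 of 25 genes, against 85.2% of the 1839 genes called higher at any time. The order Th2, Th1, Th0 was followed by 19 of 25, against 63.5% of those 1839 genes. Both traits were thus shared by most genes that rose and are not particular to the 25. The earliest genes were Shmt1, at 4.16 h over the series and 2.90, 4.47 and 6.08 h in Th2, Th1 and Th0, Adss, at 4.69 h, and Prps1, at 5.29 h. Shmt2, Ctps, Aprt, Umps, Nme1, Ppat, Psat1, Pfas and Gmps passed midway between 6.61 and 7.91 h. Phgdh, Psph, Paics and Atic did so between 12.0 and 13.9 h, and Dut at 19.7 h. The 1839 genes called higher at any time had medians of 9.41, 6.54 and 5.50 h in Th0, Th1 and Th2. Of the 25 genes called higher at 24 h, 12 were lower at 24 h than at 20 h in Th2, 6 in Th0 and 1 in Th1. These are descriptions with no test, and the 3 series share their resting libraries.

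At single times the order was plainest at 8 h. Levels were lowest in Th0 and highest in Th2, with Th1 between, in 22 of 34 genes at 4 h, 27 at 8 h, 24 at 12 h, 15 at 16 h, 16 at 20 h and 9 at 24 h. Over all genes tested the share in that order was 19.6%, 32.3%, 27.7%, 16.9%, 21.2% and 14.5% at these times. Over all genes called higher at 24 h it was 54.9%, 71.5%, 64.9%, 33.5%, 39.9% and 24.0%. The median difference of Th2 from Th0 over the 34 genes was 0.45 at 4 h, 0.96 at 8 h, 0.38 at 12 h, 0.27 at 16 h, 0.22 at 20 h and 0.03 at 24 h. At 8 h Th2 was at least 2-fold above Th0 in 17 of 34 genes, against 5.90% of all genes tested and 31.2% of the genes called higher at 24 h. Over all genes the Th0 8 h and Th2 8 h libraries also stood farthest from the other cultures of their time, at median absolute log2 distances of 0.345 and 0.304, against 0.105 to 0.260 for the other cultures. Their part in the order at 8 h was not tested. The plot of differences by time gives the median of the 34 genes beside those of all genes and of the genes called higher at 24 h.

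**Figure D4:**
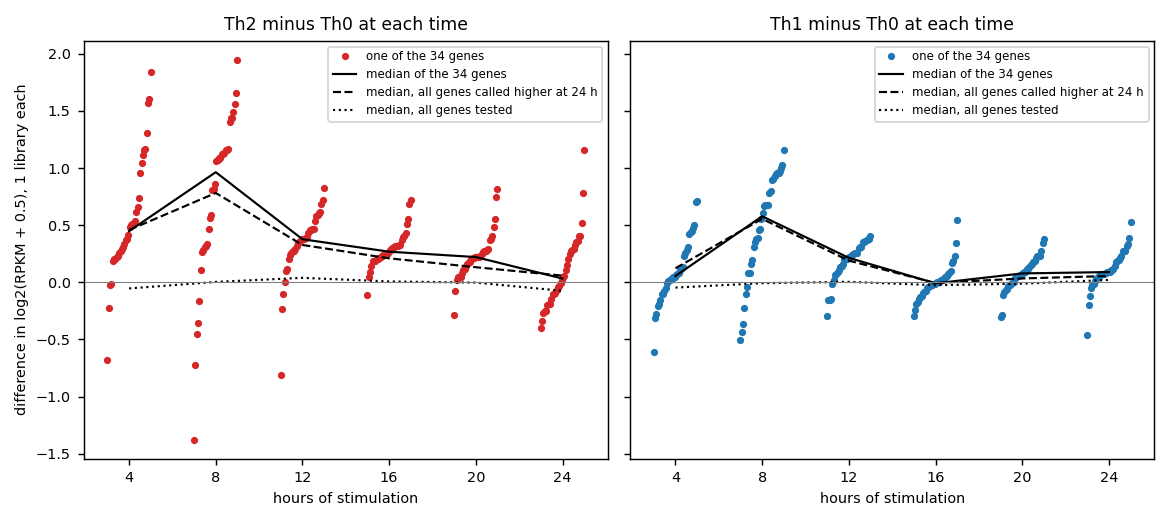
Difference of Th2 (left) and Th1 (right) from Th0 at each time on the log2(RPKM + 0.5) scale, with 1 point for each of the 34 genes in rising order and lines for medians. The median of Th2 minus Th0 over the 34 genes was 0.96 at 8 h and 0.03 at 24 h, against 0.78 and 0.06 over all genes called higher at 24 h.

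For 6 genes the values could be turned back into whole reads, which gives the ratio of Th2 to Th0 a 95% interval for counting error alone. The ratio of Mthfd1 was 2.57 (2.33 to 2.84) at 4 h, 2.75 (2.59 to 2.92) at 8 h and 0.873 (0.841 to 0.905) at 24 h. That of Shmt2 was 1.58 (1.49 to 1.69), 3.17 (3.03 to 3.32) and 0.879 (0.853 to 0.905) at the same times. Impdh2 went from 1.14 (1.08 to 1.2) at 4 h through 2.19 (2.10 to 2.28) at 8 h to 0.930 (0.905 to 0.955) at 24 h. For these 3 genes Th2 led Th0 early and was below it at 24 h by more than counting error. Aprt was at 2.08 (1.89 to 2.30), 2.12 (1.97 to 2.28) and 1.19 (1.13 to 1.25), while Rrm1 stayed between 1.18 and 1.44 and Hprt between 1.06 and 1.40 over all times. Each ratio compares 2 libraries, not the conditions.

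Over all 6 times with the time as a factor, no gene of the 34 was called between conditions by limma. Of all 10737 genes tested, 2.01% were called between Th2 and Th0, 1.96% between Th2 and Th1 and 0.494% between Th1 and Th0. At an unadjusted p under 0.05 there were 29, 15 and 10 of the 34 genes, against 41.2%, 25.3% and 16.4% of all genes tested. Past the adjusted p alone, without the fold limit, 25 genes were higher and 1, Ctps2, lower in Th2 than in Th0, Psph, Prps1 and Rrm1 were higher in Th2 than in Th1, and none passed between Th1 and Th0. Of all genes tested, 12.9% were higher and 16.7% lower in Th2 than in Th0 by that rule, 3.49% higher in Th2 than in Th1, and 2.27% differed either way between Th1 and Th0. The largest differences of Th2 from Th0 were those of Cad, 0.73 ± 0.18 (SE, adjusted p = 0.0083), Shmt1, 0.69 ± 0.19 (SE, adjusted p = 0.013), and Nme1, 0.69 ± 0.16 (SE, adjusted p = 0.005). The difference of Ctps2 was -0.53 ± 0.15 (SE, adjusted p = 0.015). Between Th2 and Th1 they were those of Prps1, 0.76 ± 0.17 (SE, adjusted p = 0.0079), Cad, 0.47 ± 0.18 (SE, adjusted p = 0.12), and Shmt1, 0.40 ± 0.19 (SE, adjusted p = 0.2). Between Th1 and Th0 they were those of Nme1, 0.41 ± 0.16 (SE, adjusted p = 0.21), Prps1, -0.37 ± 0.17 (SE, adjusted p = 0.3), and Ctps, 0.36 ± 0.19 (SE, adjusted p = 0.36). The median over the 34 genes was 0.35 between Th2 and Th0, 0.23 between Th2 and Th1 and 0.16 between Th1 and Th0, against 0.00, 0.02 and -0.01 over all genes. With only the cultures of 4 and 8 h, a fit added after the values were seen, 12 of the 34 were called between Th2 and Th0, as were 610 of 10870 genes. Psat1, Shmt1, Shmt2, Mthfd1, Cad, Umps, Ctps, Gart, Pfas, Nme1 and Aprt were higher and Ctps2 was lower in Th2.

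Whether these differences changed over the hours was tested as a difference in slope over time. Between Th2 and Th0, 10 genes had a lower slope in Th2 (4.05% of all genes tested) and 2 a higher one (1.10%) at an adjusted p under 0.05. The slope in Th2 was lower per hour by these log2 differences from Th0: Ctps -0.096 ± 0.014, Shmt1 -0.091 ± 0.015, Mthfd1 -0.078 ± 0.012, Cad -0.075 ± 0.019, Nme1 -0.069 ± 0.016 and Umps -0.060 ± 0.011 (SE). Gart, Psat1, Mthfd2 and Phgdh differed by -0.055 to -0.032 per hour. Ctps2 and Tyms had the higher slope, by 0.056 ± 0.015 and 0.039 ± 0.011 (SE). No gene of the 34 passed between Th2 and Th1 (1.09% of all genes) or between Th1 and Th0 (0.0279%), where 15 and 8 of the 34 had an unadjusted p under 0.05, against 18.2% and 9.23% of all genes. The count between Th2 and Th0 moved with the times used, from 24 without 4 h to 6, 5, 3 and 2 without 12, 16, 20 and 24 h, and to 8 without the Th2 24 h library. Calls over all genes in these fits are not given here, so these moves are not read as a trait of the 34 genes. Shmt1 and Ctps were called under every alternative run for this comparison.

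The actinomycin libraries give the level of each transcript relative to the others once transcription was blocked, with 1 library per time. RPKM are shares of a library's total, so the values show neither an absolute loss nor an absolute gain of a transcript. Of the 34 genes, 2 were at 0.5 or less of their starting level after 4 h, Ppat and Umps, against 6.86% of all 10571 genes tested. Ppat went through 54.8, 42.5, 34.5 and 21.1 RPKM at 0, 1, 2 and 4 h, lower at each step, to a ratio of 0.385. Umps went through 61.5, 60.05, 45.97 and 29.7 RPKM, to a ratio of 0.483, and Gmps through 29.9, 25.4, 22.01 and 15.4 RPKM, to 0.516. Shmt1, the gene with the largest rise at 24 h, went through 97.9, 94.1, 77.4 and 63.6 RPKM. Tyms and Tk1 were higher at each later time, at 13.1, 15.4, 18.6 and 25.1 RPKM and 9.62, 10.9, 12.03 and 18.9 RPKM, to 1.91 and 1.96 times their start. The slopes of these 6 genes had the smallest exact permutation p that 4 times allow, 0.0417 two-sided, which 14.3% of all genes reached, and no gene passed after adjustment over all genes, the lowest adjusted p being 0.292. The median slope was -0.045 per hour over the 34 genes and 0.002 over all genes, of which 49.2% had a slope below 0. The other genes lay between 0.584 and 1.31 times their start, with Paics at 0.584 and Impdh1 at 1.31.

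**Figure D5:**
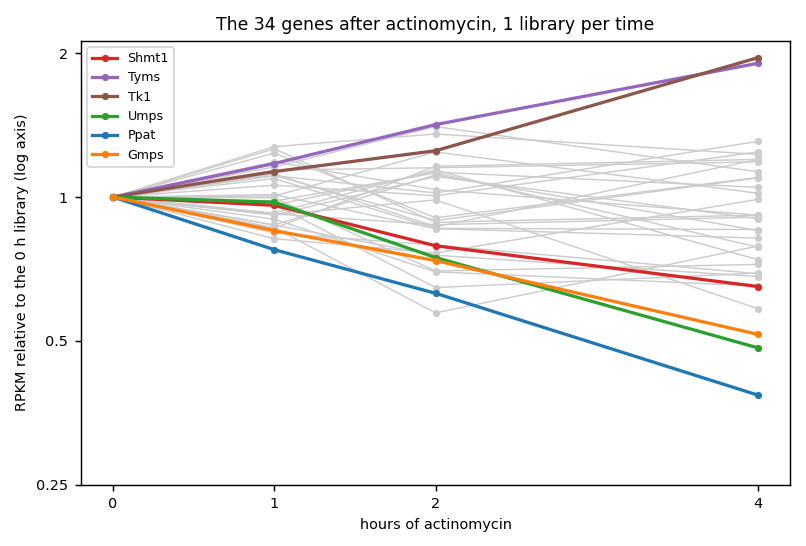
RPKM of the 34 genes relative to the 0 h library (log axis) against hours of actinomycin, with 1 library per time. At 4 h Ppat was at 0.385 of its start and Tk1 at 1.96 times its start, and the 28 genes in grey lay between 0.584 and 1.31.

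The actinomycin libraries began 16 h after stimulation, so their 0 h library was set beside the 3 cultures of 16 h. It lay within the range of those cultures for 13 of the 34 genes, above it for 15 and below it for 6. The same count was not made over all genes, so these numbers are not read as a trait of the 34. The median difference over the 34 genes was 0.14, against -0.06 over all genes. Rrm2 was at 16.3 RPKM there against 5.83 to 9.70 RPKM in the cultures, and Adss at 167 RPKM against 107 to 124 RPKM. The monocyte and macrophage markers summed to 59.7 to 82.4 RPKM in the 4 actinomycin libraries against 13.2 to 32.3 RPKM in the 16 h cultures, and their part in these differences was not tested. As 1 library of a condition not named, it was not tested against them.

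Genes around the same pathways, from 6 lists of 83 names, were taken as a wider view. Of the 73 tested, 26 were called higher and 10 lower at 24 h, with a median difference of 0.61, against 12.7% and 17.4% of all genes and a median of -0.04. At 4 h, 2 were called higher and 5 lower, against 2.61% and 7.97% of all genes. The largest rises at 24 h were those of Ak4, an adenylate kinase of mitochondria, 2.90 ± 0.30, Dctd, which deaminates dCMP, 2.69 ± 0.45, and Dctpp1, which clears dCTP, 2.67 ± 0.39 (SE). The largest falls were those of Gda, guanine deaminase, -4.70 ± 0.22, Cmpk2, a mitochondrial nucleotide kinase, -4.24 ± 0.46, and Ampd3, an AMP deaminase, -3.996 ± 0.21 (SE). In the folate list 3 of 13 tested genes were called higher, in the glycine and serine list 4 of 8 and in the methionine cycle 4 of 7, and none of these 3 lists had a gene called lower. In nucleoside salvage 4 of 13 were higher and 3 lower, among kinases and the other reductase subunit 7 of 15 higher and 2 lower, and in breakdown and deamination 4 of 17 higher and 5 lower. Between conditions 1 of the 73 was called, Samhd1, which breaks down deoxynucleoside triphosphates. It was lower in Th2 than in Th0 and in Th1, and is named after its values were seen.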

How the data were processed

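RNA was extracted from CD4+ T cells and sequenced on an Illumina NextSeq. The authors deposited 1 table of RPKM values, with 1 column per library, 22010 entries and 1 nameless entry that summed to 0. Their processing notes name BWA and GRCm38, and the version, annotation and strand setting are not given in the sources used here.

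From the deposited RPKM, log2(RPKM + 0.5) was fitted with limma 3.58.1 in R 4.3.3, with a trend on intensity and the Benjamini-Hochberg adjustment over the genes whose mean reached 1 RPKM: 10897 in the 20 time-course libraries, with time as a factor, and 10737 in the 18 cultures, with condition and time as factors, and with condition by linear time for slopes. Calls needed an adjusted p under 0.05 and 2-fold, and slopes the adjusted p alone. Slopes after actinomycin used log2(RPKM + 0.1) and an exact permutation of the 24 orders. Mapped reads were recovered from the steps between values, and 6 of the genes lay on whole reads within 0.05. Ratios have conditional binomial 95% intervals, which cover counting error only. The fits were tested on simulated data. Python 3.11.15 with numpy 2.4.6, pandas 2.3.3, scipy 1.17.1 and matplotlib 3.10.9 was used. Shared transcript windows of 50 bases were counted in the GENCODE transcripts.

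The 34 genes and the lists were chosen with earlier results of these data known. Values by library were given for genes called between conditions or in slope, the 10 largest changes at 24 h and 6 enzyme pairs. Where no gene was called between conditions, the 3 largest differences were named. Alternatives were a pseudocount of 0.1 or 1, the filter left out or set to 5 RPKM, other scalings, no trend, fewer libraries and leaving libraries out.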

Additional observations from a re-analysis of the deposited data

Results flagged for a closer look

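For 12 of the 34 genes the slope over time differed between Th2 and Th0, against 5.15% of all genes tested. The test was limma's on the condition by time term (adjusted p under 0.05, log2(RPKM + 0.5) scale per hour, 18 cultures). The slope in Th2 minus that in Th0 was -0.0964 for Ctps, -0.0910 for Shmt1, -0.0776 for Mthfd1, -0.0746 for Cad, -0.0687 for Nme1, -0.0597 for Umps, -0.0554 for Gart, -0.0527 for Psat1, -0.0481 for Mthfd2 and -0.0323 for Phgdh. It was 0.0565 for Ctps2 and 0.0394 for Tyms. The Th0 8 h and Th2 8 h libraries stood farthest from the other cultures of their time, at median absolute log2 distances of 0.345 and 0.304 over all genes tested. The fit without 8 h called 8 of the 34 genes, and its calls over all genes are not given here.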

How the results depend on the processing

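No pairing by replicate number was possible because the groups compared share fewer than 2 of them. The conditions share their times, and their comparisons already have time as a factor. The tests of conditions and slopes treat the times of a condition as independent, which they may not be. With the condition series as a block in the 18 cultures, the steps between times had the same counts as reported: 14, 1, 0, 1 and 2 genes. Of 291 alternative values for the 20 counts and descriptions, 264 stayed within 1.5 times or the spread of the value reported and 27 moved. Of 693 alternative values for 42 single changes, none turned in direction, 12 lost the call and 3 gained it. With only the libraries compared in the fit, 0 genes were called from 4 to 8 h, 0 from 8 to 12 h, 0 from 16 to 20 h and 0 from 20 to 24 h, where fewer libraries estimate the spread. From 20 to 24 h, 1 gene was called with no filter on low values and 1 without the Th2 24 h library. Between Th2 and Th0, 12 were called with only 4 and 8 h. For the slope of Th2 against Th0, 5 were called with no filter, 6 with no intensity trend and 4 with only these 2 conditions, and for Th2 against Th1, 6 with only 2 conditions. The cause of these moves was not tested. Leaving out 1 condition or 1 resting library gave 5 to 7 calls at 4 h, 10 to 17 at 8 h, 19 to 22 at 12 h, 22 to 25 at 16 h, 25 to 26 at 20 h and 26 to 27 at 24 h. It gave 0 to 17 from 4 to 8 h, 0 to 2 from 8 to 12 h, 0 to 0 from 12 to 16 h, 0 to 1 from 16 to 20 h and 0 to 2 from 20 to 24 h. Without the Th1 cultures none was called from 4 to 8 h, from 8 to 12 h, from 16 to 20 h or from 20 to 24 h, and without the Th0 cultures none from 16 to 20 h and 1 from 20 to 24 h. Without the Th2 cultures 2 were called from 8 to 12 h. Leaving out 1 time gave 0 calls between conditions throughout, 2 to 24 slopes for Th2 against Th0, 0 to 7 for Th2 against Th1 (7 without 8 h, 3 without 4 h) and 0 to 1 for Th1 against Th0 (1 without 4 h). The median midpoint of the rise lay at 7.25 to 9.24 h and the median actinomycin slope at -0.0768 to -0.0355 with 1 series or time left out. The fits with only 4 and 8 h, with the block and without the Th2 24 h library were chosen after seeing the data.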
